A study of Saccharomyces cerevisiae with 64 samples.

Results

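The move of yeast cells from pre-sporulation medium (SPS) to potassium acetate sporulation medium (SPM) was examined through the binding of 2 subunits of the histone methyltransferase complex Set1C, Bre2 and Spp1. Chromatin immunoprecipitation followed by sequencing (ChIP-seq) gave 1 peak list per sample. The 8 lists compared here are those of 4 strains sampled once in SPS and once at 0 h in SPM, matched by strain, out of 62 lists in the series. They hold 10847 of the 56230 peaks of all lists. A peak is a stretch of the genome that the authors' caller marked as bound.

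All 4 strains are SK1 diploids of the same marker genotype (trp1/trp1 and ura3/ura3, with leu2/LEU2 and HIS4/his4), homozygous for a 13xmyc tag. The tag sits on Bre2 (BRE2-13xmyc), on full-length Spp1 (SPP1-13xmyc), on Spp1 without its PHD finger (spp1PHDΔ-13xmyc) or on Spp1 without its CXXC domain (spp1CXXCΔ-13xmyc). Cells were grown overnight in SPS and then washed and resuspended in 1% potassium acetate, and chromatin was fixed with formaldehyde and precipitated with an anti-myc antibody. Both kinds of sample carry the time label 0 h, and the medium in the sample title separates them. How long the cells of the 0 h samples had been in acetate is not given in the labels. Whether the SPS and 0 h samples of a strain came from 1 culture is not stated in the labels. Each strain was sampled once per medium, so the spread between cultures of 1 strain, or between technical repeats, was not measured. The p-values rest on these 4 strains alone, which differ in the tagged protein.

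As background, Set1C is the enzyme that methylates lysine 4 of histone H3 in budding yeast, and trimethylation of this residue marks the first part of transcribed genes. Spp1 reads methylated lysine 4 through its PHD finger and is known in meiosis for linking chromatin to Mer2, a protein of the chromosome axis at which double-strand breaks form. Bre2 is a core subunit of the complex. Acetate is a carbon source that cannot be fermented, and cells that use it rely on respiration, the glyoxylate cycle and gluconeogenesis.

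Spp1-myc in SPS stood apart from the other SPS lists in most measures below and is given separately throughout. Its list held 1782 peaks, against 905 for Bre2-myc, 795 without the PHD finger and 910 without the CXXC domain. At 0 h the lists held 1371, 2119, 1382 and 1583 peaks for Bre2-myc, Spp1-myc, PHD-deleted and CXXC-deleted Spp1-myc. The 0 h list was the longer one in 4 of 4 strains, by 516 ± 146 peaks (SD, n = 4). Between 8 and 55 peaks per list lay on a sequence named chrXVII, for which the gene table has no entry. The other peaks, called nuclear below, could be set against 6002 protein-coding genes. The lists hold no read counts, so the sequencing depth is unknown, and no list from an untagged strain was analysed here, so the peaks have no measured background beside them.

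In 3 of the 4 strains most SPS peaks lay in intergenic DNA, and at 0 h nearly all peaks of every strain lay in coding regions. In SPS, 56.0% of nuclear Bre2-myc peaks had their midpoint outside every coding region (Wilson 95% interval 52.7 to 59.3, which like all intervals here covers counting error only). At 0 h the share was 5.40% (4.30 to 6.75). PHD-deleted Spp1-myc had shares of 51.7% (48.2 to 55.2) in SPS and 4.52% (3.53 to 5.76) at 0 h. For CXXC-deleted Spp1-myc they were 52.1% (48.8 to 55.4) and 5.47% (4.45 to 6.71). For Spp1-myc they were 21.7% (19.9 to 23.7) and 3.23% (2.55 to 4.08). The share was thus higher in SPS in 4 of 4 strains, and the lowest SPS value lay above the highest 0 h value.

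The test used for such values exchanges the media within each strain in all 16 ways (two-sided exact permutation test). With 4 strains it cannot give a p below 0.125, so no comparison between the media can pass 0.05. The mean difference in the share outside coding regions, 0 h minus SPS, was -40.7 ± 14.9 percentage points (SD, n = 4), with exact p = 0.125 and an adjusted p of 0.135 over 13 measures. Of these 13 measures, 7 were added after the data were seen, this one among them. Among the 36 other lists from SPM in these strains and in Spp1-HA strains, the share ranged from 3.84 to 17.2%, below all 4 SPS lists. In the competition experiment of the series it ranged from 6.36 to 42.5%, in lists of 40 to 670 nuclear peaks.

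Measured from the nearest coding start, SPS peaks of Bre2-myc, PHD-deleted and CXXC-deleted Spp1-myc were most frequent 200 to 300 bp upstream. This 100 bp bin held 12.6%, 11.3% and 11.6% of their nuclear peaks. At 0 h the fullest bin of all 3 lay 300 to 400 bp downstream of the start and held 28.4%, 30.0% and 30.6%. Spp1-myc peaks were most frequent 300 to 400 bp downstream in SPS (21.6%) and 200 to 300 bp downstream at 0 h (36.2%). In the Spp1-myc SPS list, an upstream population lay beside a larger one inside genes.

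**Figure D1:**
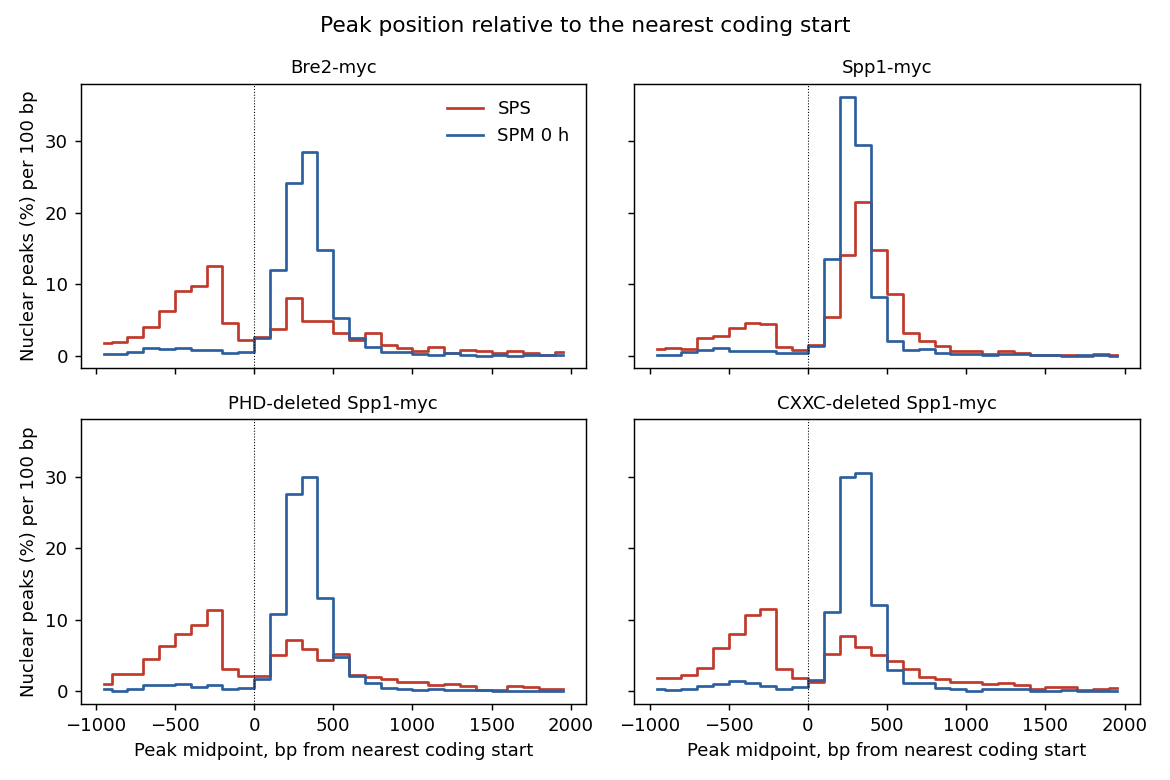
Share of nuclear peaks (%, y axis) per 100 bp of distance between the peak midpoint and the nearest coding start (x axis, bp, negative upstream), in 1 panel per strain, SPS in red and SPM 0 h in blue. At 0 h all 4 strains have their fullest bin between 200 and 400 bp downstream, while in SPS 3 of them have it 200 to 300 bp upstream.

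Peaks in the 500 bp before a coding start, the planned measure of promoter binding, made up 41.7% (Bre2-myc), 18.6% (Spp1-myc), 37.9% (PHD-deleted) and 38.5% (CXXC-deleted) of nuclear peaks in SPS. At 0 h they made up 7.98%, 7.95%, 7.85% and 9.07%. The share was higher in SPS in 4 of 4 strains, with no overlap between the media, and differed by -26.0 ± 10.4 percentage points (SD, n = 4; exact p = 0.125, adjusted p = 0.135).

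Inside genes of at least 1000 bp, peaks lay nearer the coding start at 0 h than in SPS. Of coding peaks in SPS, the first of 5 equal parts of the gene held 17.1% for Bre2-myc, 36.0% for Spp1-myc, 15.2% without the PHD finger and 17.0% without the CXXC domain. At 0 h it held 45.0%, 56.8%, 46.7% and 50.8%, a mean difference of 28.5 ± 5.68 percentage points. The last part held 21.7%, 5.62%, 22.4% and 16.2% in SPS, and 3.41%, 3.46%, 3.05% and 2.71% at 0 h. Each share differed in the same direction in 4 of 4 strains, without overlap between the media, and both had an exact p of 0.125 (adjusted p = 0.135). The median peak was 251 bp wide in all 4 SPS lists, and 301, 251, 301 and 301 bp wide at 0 h (exact p = 0.25).

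**Figure D2:**
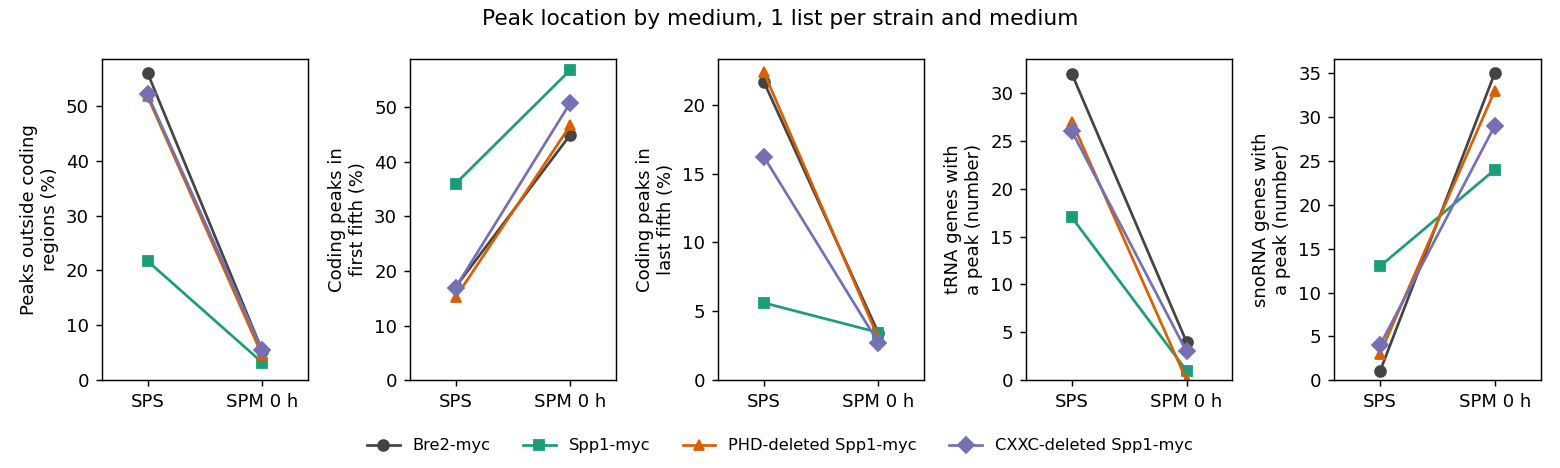
Location of peaks in SPS and at SPM 0 h, 1 line per strain: nuclear peaks outside coding regions (%), coding peaks in the first and in the last of 5 parts of genes of 1000 bp or more (%), and tRNA and snoRNA genes with a peak within 250 bp (number). All lines of a panel slope the same way, and Spp1-myc (squares) has the flattest line in every panel.

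The intergenic peaks of SPS lay in intervals that hold promoters. An interval between neighbouring coding regions was called divergent when it lies upstream of both genes, tandem when it lies upstream of 1, and convergent when it lies downstream of both. In SPS, 218 of 1527 divergent intervals held a Bre2-myc peak, against 23 at 0 h. The counts were 154 and 21 for Spp1-myc, 176 and 22 without the PHD finger, and 201 and 30 without the CXXC domain. Of 2828 tandem intervals, 225, 182, 193 and 218 held a peak in SPS and 30, 32, 25 and 38 at 0 h. Of 1513 convergent intervals, only 14, 18, 14 and 11 held one in SPS, close to the 17, 11, 14 and 15 at 0 h.

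In all, 230 of 5868 intervals (3.92%) held an SPS peak in 4 of 4 strains and no 0 h peak in any strain. They comprised 120 divergent, 109 tandem and 1 convergent intervals. The ones with the highest-scoring peaks, named after their values were seen, included the interval between PUP2 and ENO1 (enolase), that between SSA1 (a cytosolic Hsp70) and EFB1 (an elongation factor subunit) and that between TMA10 and NMA1. They also included the intervals upstream of GPD2 (glycerol 3-phosphate dehydrogenase) and TYE7 (a regulator of glycolytic genes), and the tandem interval beside HXK1 (a hexokinase). The intervals between GTO3 and HOR7, SOK2 and SPO20, and NDE1 and TIF34 scored above those of TYE7 and GPD2, so no common function is read from these names. Intervals were called by peak midpoints, and a peak can reach into a gene. ENO1, SSA1, EFB1 and HXK1 themselves had a peak in both media in 4 of 4 strains. The divergent interval between GAL10 and GAL1, the galactose genes, was also among the 120, with a mean score percentile of 55.9.

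A minority of tRNA genes, which RNA polymerase III transcribes, had a peak in SPS, and nearly none had one at 0 h. Of 275 nuclear tRNA genes, 32 lay within 250 bp of the midpoint of a Bre2-myc peak in SPS, 17 for Spp1-myc, 27 without the PHD finger and 26 without the CXXC domain. At 0 h the numbers were 4, 1, 0 and 3, and in the 36 other lists from SPM they ranged from 0 to 9. The difference of -23.5 ± 5.45 genes (SD, n = 4) had 1 direction in 4 of 4 strains (exact p = 0.125). It was not particular to tRNA genes, since all peaks outside coding regions numbered 490, 378, 407 and 460 in SPS and 71, 67, 61 and 85 at 0 h. In SPS 14 tRNA genes (5.09%) had a peak in all 4 strains, beside 8.64% of divergent, 4.49% of tandem and 0.132% of convergent intervals. Among these tRNA genes were SUP61, SUP53 and SUP17, and at 0 h no tRNA gene (0%) had a peak in all 4 strains. Genes of small nucleolar RNAs (snoRNAs), which guide the modification and cleavage of ribosomal RNA, differed in the opposite direction. Of 76, 1 had a Bre2-myc peak in SPS, 13 a Spp1-myc peak, 3 a PHD-deleted and 4 a CXXC-deleted Spp1-myc peak.

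At 0 h, 35, 24, 33 and 29 snoRNA genes had a peak, higher in 4 of 4 strains by 25.0 ± 10.0 genes (exact p = 0.125). None had a peak in all 4 strains in SPS (0%), and 20 (26.3%) did at 0 h, among them SNR17A, SNR30, SNR10, SNR190 and SNR128. Of these 20, none lies inside a coding gene and 10 lie within 250 bp of one, where a peak cannot be assigned to the snoRNA gene alone.

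About 1 in 3 SPS peaks of 3 strains was found again at 0 h, and most of those of Spp1-myc. Of Bre2-myc SPS peaks, 31.7% (28.8 to 34.8) shared at least 1 bp with a 0 h peak of the same strain, as did 31.2% (28.1 to 34.5) of PHD-deleted and 34.4% (31.4 to 37.5) of CXXC-deleted peaks. For Spp1-myc the share was 63.5% (61.3 to 65.7). Apart from Spp1-myc, the SPS lists overlapped more with each other than with 0 h lists. In the Bre2-myc, PHD-deleted and CXXC-deleted lists, 73.5 to 85.5% of SPS peaks were found in another SPS list, and 29.1 to 37.8% in a 0 h list of any strain. Of the longer Spp1-myc SPS list, 35.0 to 39.8% of peaks were found in the other SPS lists and 42.3 to 63.5% in the 0 h lists.

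The peaks absent from 0 h were mostly the intergenic ones. Of Bre2-myc SPS peaks not found at 0 h, 72.7% lay outside coding regions, against 16.2% of those that were found. The values were 69.2% and 12.0% for PHD-deleted, 71.2% and 14.2% for CXXC-deleted, and 50.8% and 4.82% for Spp1-myc. SPS peaks found at 0 h were also wider, with medians of 401, 351, 401 and 351 bp for Bre2-myc, Spp1-myc, PHD-deleted and CXXC-deleted Spp1-myc, against 201, 151, 251 and 251 bp for the others.

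At the level of genes, a coding gene counted as occupied if it had a peak midpoint inside the coding region or in the 500 bp before the coding start. In SPS 686, 1480, 598 and 667 genes were occupied (Bre2-myc, Spp1-myc, PHD-deleted, CXXC-deleted), and at 0 h 1261, 2040, 1319 and 1516. A gene occupied in SPS and not at 0 h was called lost, the reverse gained, and one occupied in both kept. Lost genes numbered 325 (5.41% of coding genes), 312 (5.2%), 249 (4.15%) and 247 (4.12%) in the 4 strains. Gained genes numbered 900 (15%), 872 (14.5%), 970 (16.2%) and 1096 (18.3%). Kept genes numbered 361, 1168, 349 and 420.

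Of all coding genes, 99 (1.65%) were lost in 4 of 4 strains, 257 (4.28%) were gained and 242 (4.03%) were kept. Without Spp1-myc, 159 were lost and 603 gained in the other 3 strains. Per gene, Fisher's exact test over 4 against 4 libraries, two-sided and with Benjamini-Hochberg adjusted p-values across the 2668 genes that had any peak, called 0 genes, with 356 at the smallest p it allows, 0.0286. The classes are therefore descriptions of presence and absence of called peaks. With equal list sizes, the 795 highest-scoring peaks of each list, 61 genes were lost, 118 gained and 154 kept in 4 of 4 strains. With a window of 1000 bp, 211 of the 257 gained genes stayed gained. A gained gene can thus have an SPS peak further upstream.

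The lost genes carried upstream peaks. Of the 99, 75 had only an upstream Bre2-myc peak in SPS, 68 only an upstream Spp1-myc peak, 74 a PHD-deleted and 75 a CXXC-deleted one. Between 48 and 53 of them were called only through a peak that lies within reach of another gene too. SPT8, which encodes a subunit of the transcription coactivator SAGA, shared its peak with ERG3 of ergosterol synthesis across a divergent interval of 780 bp. That peak spanned chromosome XII 253213 to 253663 (sacCer3) in Bre2-myc, 253216 to 253616 in Spp1-myc, 253213 to 253613 in PHD-deleted and 253216 to 253616 in CXXC-deleted Spp1-myc.

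PCL1, a cyclin of G1 phase, had an SPS peak with its midpoint 406, 333, 341 and 356 bp upstream of the coding start (Bre2-myc, Spp1-myc, PHD-deleted, CXXC-deleted). For GAL2, the galactose permease gene, the midpoint lay 349, 371, 374 and 371 bp upstream, on chromosome XII at 289763 to 289963 in Bre2-myc. The peak positions in the 4 strains thus differed by less than 100 bp in both genes, and neither gene had a peak in any 0 h list. AAC1, which encodes a mitochondrial ADP/ATP carrier, had its SPS midpoint 31 to 56 bp upstream, on chromosome XIII at 387950 to 388650 in Bre2-myc.

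Several of the highest-scoring lost genes had peaks far upstream of a neighbour. Their Bre2-myc midpoint lay 522 bp upstream of FET3, which encodes an iron oxidase, for AAC1. It lay 705 bp upstream of HXT6 (a glucose transporter) for YDR344C, 659 bp upstream of ROX1 (the repressor of hypoxic genes) for YPR064W, and 834 bp upstream of FMP48 for YGR050C. For SHR5 it lay 622 bp upstream of ZEO1, for YMR103C 823 bp upstream of LAF1, for ENV9 551 bp upstream of SRL1 and for UBR2 584 bp upstream of IZH3. These distances exceed the 500 bp limit, so the neighbours were not called. The UBR2 peak lay 5568 bp from the coding start of a gene of 5619 bp, at its end. The last of the 12 named, YLR112W, shared its peak with the coding region of YLR111W.

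Of the 99 lost genes, 10 belong to any of the 25 gene lists examined, against 117 of 257 gained and 107 of 242 kept genes. The share of all coding genes in any list was not computed, so no function of the lost class is read from these 10. The 10 were PCL1, TEF1 (translation elongation factor 1-alpha), MRPL15, RPL41B, MTD1, GAT1 (an activator of nitrogen scavenging genes), the phosphate genes PHM8 and SPL2, ERG4 and the sporulation glucoamylase gene SGA1. The galactose genes GAL1 and GAL10, which were not in a list and are named after their values were seen, were lost in 4 of 4 strains as well. TEF1 and RPL41B have near-identical copies, and how reads matching both copies were placed is unknown here.

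The gained genes were led by those of the cytosolic ribosome. Of 137 cytosolic ribosomal protein genes, 16 were occupied in SPS for Bre2-myc, 6 for Spp1-myc, 13 without the PHD finger and 11 without the CXXC domain. At 0 h 130, 107, 127 and 106 were occupied, higher in 4 of 4 strains by 106 ± 9.56 genes (SD, n = 4; exact p = 0.125, the smallest possible, and adjusted p = 0.312 over 25 lists). In SPS 112 were occupied in none of the strains, and at 0 h 97 were occupied in all 4. Gained in 4 of 4 strains were 77 of them (56.2%), against 4.28% of all coding genes, and the median gene of the list was occupied in 4 more strains at 0 h than in SPS. The same median was 0 over all coding genes and 1 over genes with any peak.

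Most 0 h peaks of these genes lay inside them. Their median width was 476, 251, 451 and 251 bp (Bre2-myc, Spp1-myc, PHD-deleted, CXXC-deleted), against 301, 251, 301 and 301 bp over all 0 h peaks. With at least 1 midpoint in the coding region were 124 of the 130, 102 of 107, 122 of 127 and 103 of 106 occupied genes, against 1, 3, 0 and 1 in SPS. The median midpoint at 0 h was 366.5, 300, 352 and 342 bp from the coding start. The genes with the highest scores had wider ones. RPS3 had a 0 h peak of 651 bp in Bre2-myc (chromosome XIV 302722 to 303372), of 601 bp in Spp1-myc, of 651 bp in PHD-deleted and of 601 bp in CXXC-deleted Spp1-myc. Its midpoints lay 335 to 374 bp from the coding start. RPL3 had 0 h peaks of 1101, 951, 1051 and 951 bp, the first at chromosome XV 444669 to 445769. RPL5, RPS2, RPL15A and RPL32 had 0 h peaks of 501 to 851 bp, and none of these 6 genes had a peak in any SPS list. With equal list sizes, 122, 48, 105 and 64 ribosomal protein genes were occupied at 0 h and 11, 0, 13 and 8 in SPS.

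Many ribosomal protein genes exist as near-identical pairs, so a call on 1 member of a pair is uncertain. RPL3, RPL5, RPL32, RPS2 and RPS3 are single-copy genes. Without Spp1-myc, 86 of the 137 genes of the list were gained in the other 3 strains, against 603 of 6002 coding genes.

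Other genes of ribosome production and translation showed the same pattern in part. Of 51 ribosome biogenesis genes, 0, 1, 0 and 0 were occupied in SPS and 22, 34, 11 and 7 at 0 h. With equal list sizes the 0 h counts were 7, 8, 5 and 3, and none was occupied in SPS. CBF5 and NHP2 (pseudouridylation), NOP1 (fibrillarin), ENP1 and NOG2 (ribosome assembly) were gained in 4 of 4 strains. Of 27 translation factor genes, 5, 11, 5 and 5 were occupied in SPS and 19, 22, 20 and 17 at 0 h. YEF3 (elongation factor 3), EFT2 (elongation factor 2), STM1, TIF34, RPG1, NIP1, TIF5 and TIF4631 (initiation factor subunits except STM1) were gained in 4 of 4, and TEF1 was lost. SSB1 and SSB2, the Hsp70 chaperones of the ribosome, were gained in 4 of 4 strains. The SSB2 peak at 0 h was 401, 401, 401 and 351 bp wide, with midpoints 256 to 285 bp from the start. SSB1 and SSB2 are near-identical copies, as are EFT1 and EFT2.

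Mitochondrial ribosomal protein genes were less uniform over the strains. Of 67, 1, 28, 1 and 1 were occupied in SPS (Bre2-myc, Spp1-myc, PHD-deleted, CXXC-deleted) and 10, 26, 8 and 18 at 0 h. In Spp1-myc the count was lower at 0 h, and in the other 3 strains higher. MRP13 alone was gained in 4 of 4 strains (1.49%, against 4.28% of all coding genes), and MRPL15 alone was lost (1.49%, against 1.65%). In all 3 strains other than Spp1-myc 7 of the 67 were gained, a share near that of all coding genes (603 of 6002).

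Genes for the use of acetate were occupied in part before the shift, and nearly all were occupied after it. Of 25 genes of acetate use and gluconeogenesis, 14, 17, 12 and 14 were occupied in SPS and 23, 24, 23 and 23 at 0 h, higher in 4 of 4 strains by 9 ± 1.63 genes (exact p = 0.125, adjusted p = 0.312). Many of the SPS calls came from upstream peaks. With coding peaks only, 7, 15, 7 and 8 were occupied in SPS and 23, 24, 23 and 23 at 0 h. Gained in 4 of 4 were the carnitine shuttle genes CRC1, YAT2 and CAT2, the aldehyde dehydrogenase gene ALD6, the acetyl-CoA synthetase gene ACS2 and SIP4, which encodes an activator of gluconeogenesis. These 6 of 25 (24.0%) compare with 4.28% of all coding genes.

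CRC1, which carries carnitine esters into mitochondria, had a 0 h peak of 951, 501, 851 and 851 bp. CAT2, a carnitine acetyltransferase, had one of 1351, 401, 1101 and 1301 bp, at chromosome XIII 192800 to 194150 in Bre2-myc. ALD6 had one of 1401, 551, 701 and 701 bp, and YAT2 one of 651, 401, 751 and 751 bp. In each of these 4 genes the Spp1-myc peak was the narrowest of the 4. Kept in 4 of 4 strains were 9 others: PCK1 and FBP1 of gluconeogenesis, ICL1, MLS1, MDH2 and CIT2 of the glyoxylate cycle, the transporter genes JEN1 and ATO2, and YAT1. A kept gene can have only an upstream peak in SPS, as FBP1 had in every strain but Spp1-myc.

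The tricarboxylic acid cycle and respiration were largely occupied in both media. Of 17 cycle genes, 9, 14, 11 and 12 were occupied in SPS and 16, 15, 16 and 16 at 0 h, with 9 kept in 4 of 4 strains and LSC1, a subunit of succinyl-CoA ligase, gained. Of 33 genes of the respiratory chain and ATP synthase, 27, 31, 26 and 26 were occupied in SPS and 31, 33, 32 and 31 at 0 h, and 25 (75.8%) were kept, against 4.03% of all coding genes. ATP7, COX12, ATP15 and ATP20 had a 0 h peak in all 4 strains and an SPS peak only in Spp1-myc. Glycolytic genes differed by at most 1 in number in each strain. Of 21 genes of glycolysis and fermentation, 17, 19, 18 and 19 were occupied in SPS and 17, 19, 18 and 18 at 0 h, and 15 were kept. With equal list sizes the counts were 17, 16, 18 and 17 in SPS and 13, 18, 16 and 16 at 0 h.

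TDH1, a glyceraldehyde 3-phosphate dehydrogenase gene, was occupied in SPS in 4 of 4 strains, with highest-scoring peaks of 1751, 1051, 951 and 951 bp, and at 0 h only in Spp1-myc, with a peak of 501 bp. HXT7, a high-affinity glucose transporter gene, was occupied in SPS in 3 strains, by a peak of 151 bp at the end of its coding region, and at 0 h in none. MIG1, a glucose repressor gene, was gained in 4 of 4. HXT6 and HXT7 are near-identical copies.

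Biosynthetic genes were more often occupied at 0 h, as coding genes were in all (on average 858 in SPS and 1534 at 0 h). Of 41 amino acid biosynthesis genes, 10, 13, 8 and 9 were occupied in SPS and 24, 24, 28 and 28 at 0 h, higher in 4 of 4 strains by 16 ± 4.24 genes (exact p = 0.125, adjusted p = 0.312). With equal list sizes the difference was 10 genes. ASN2, CYS3, CYS4, THR1, ARG4, SAM2 and GDH3 were gained in 4 of 4. Of 14 purine genes, 1, 3, 1 and 2 were occupied in SPS and 4, 11, 5 and 5 at 0 h, with ADE8 and IMD4 gained and MTD1 lost in 4 of 4. The mean difference was 4.5 genes, and 1.5 with equal list sizes. Of 18 ergosterol genes, 5, 7, 5 and 5 were occupied in SPS and 9, 14, 8 and 8 at 0 h. ERG10, ERG11 and ERG13 were gained and ERG4 was lost in 4 of 4. The tandem interval of 866 bp upstream of ERG11 held an SPS peak in 4 of 4 strains and no 0 h peak. With equal list sizes the mean difference for ergosterol was -0.25 genes, the opposite direction. GDH2, which breaks down glutamate, had a 0 h peak of 1151, 751, 1101 and 1151 bp and was not occupied in SPS. PHD1, a transcription factor gene of filamentous growth, and MPS3, a gene of the nuclear envelope and spindle pole body, were also gained with high-scoring peaks.

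Stress and reserve genes did not differ in 1 direction between the media. Of 29 chaperone and heat shock genes, 20, 26, 20 and 23 were occupied in SPS and 25, 28, 17 and 25 at 0 h, with 12 kept in 4 of 4 strains. SSE2 was occupied in SPS in 4 strains and at 0 h only in Spp1-myc. Of 24 genes of storage carbohydrates and antioxidants, 16, 21, 17 and 17 were occupied in SPS and 15, 22, 18 and 22 at 0 h. There 13 were kept, among them TPS1, TPS2, GSY2, GPH1, NTH1 and SOD2, and the peroxisomal catalase gene CTA1 was gained. Of 20 cell wall protein genes 7 were kept, and of 11 histone genes HHT2, HTA1 and HTB1 were kept.

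**Figure D3:**
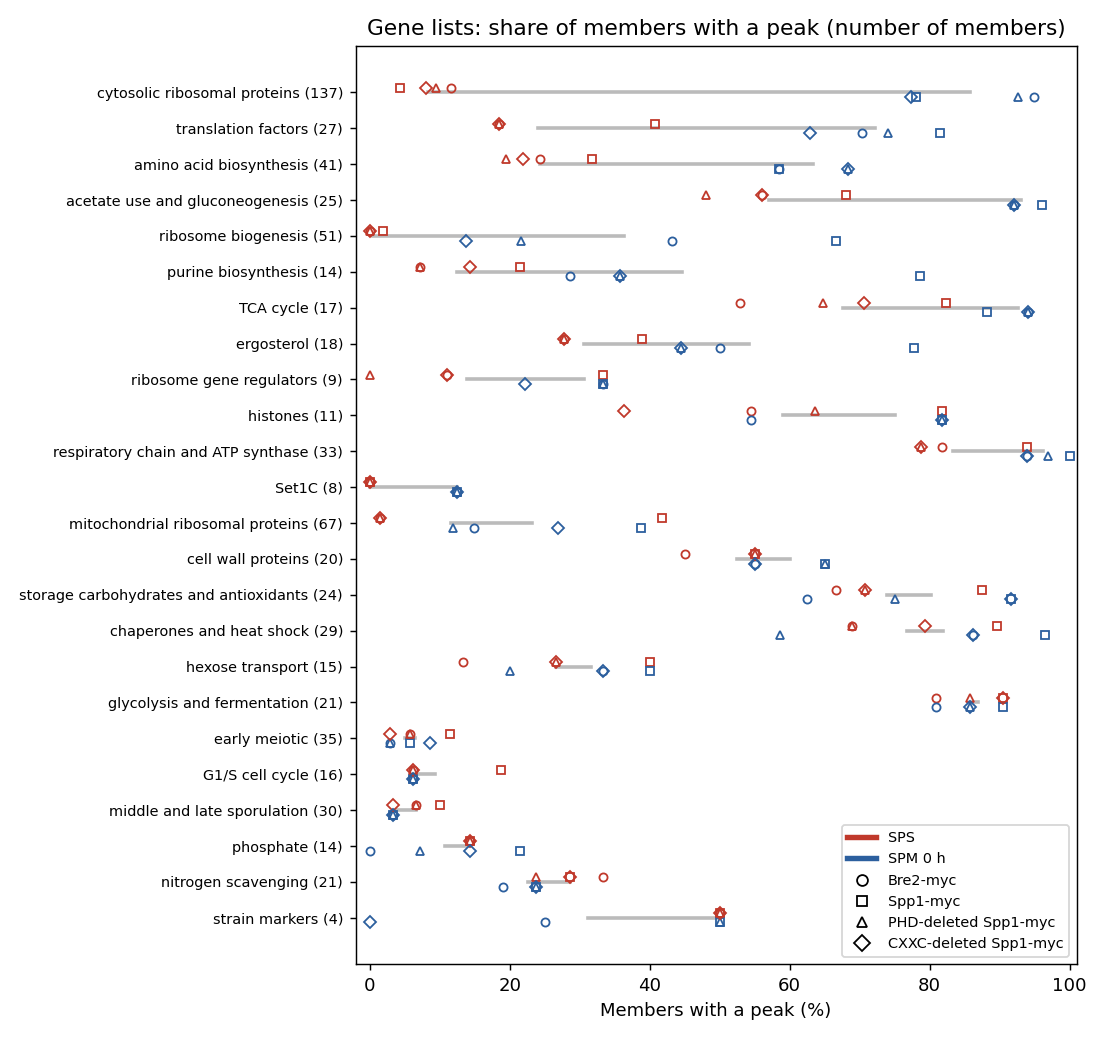
Share of the members of each gene list with a peak (x axis, %), 1 symbol per strain, SPS in red above and SPM 0 h in blue below, with a grey bar between the means. The list size stands in parentheses, and the 1 list without any peak is left out. Cytosolic ribosomal protein genes lie below 12% in SPS and above 77% at 0 h, while glycolytic genes lie between 80 and 91% in both.

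The meiotic genes had few peaks in either medium. Of 35 early meiotic genes, 2, 4, 2 and 1 were occupied in SPS and 1, 2, 1 and 3 at 0 h. IME1, the master regulator of meiotic entry, had a 0 h peak in PHD-deleted (151 bp) and CXXC-deleted Spp1-myc (351 bp) and none within 500 bp in the other 6 lists. The interval of 2653 bp upstream of it, shared with RPL43B, held an SPS peak in 4 of 4 strains and no 0 h peak. RIM4, an RNA-binding regulator of meiosis, was occupied in SPS in 3 strains by a peak 457 to 467 bp upstream, and at 0 h in none, while the interval of 799 bp before it held an SPS peak in 4 of 4. RIM15, a kinase of meiotic entry, was occupied in 4 strains in SPS and in 2 at 0 h. Of 30 genes of middle and late sporulation, 2, 3, 2 and 1 were occupied in SPS and 1 in each strain at 0 h. SGA1 was the one lost in 4 of 4, through a peak of 151 to 201 bp lying 304 to 328 bp upstream. That peak lies in the divergent interval of 753 bp between XBP1 and SGA1 and is within reach of XBP1 too. SMK1, a kinase of spore wall formation, was occupied in 4 strains at 0 h and in 1 in SPS through peaks 467 to 495 bp upstream.

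Neither nitrogen nor phosphate genes differed in the same direction in 4 of 4 strains. Of 21 nitrogen scavenging genes, 7, 6, 5 and 6 were occupied in SPS and 4, 5, 5 and 5 at 0 h, with GAT1 lost, PUT2, of proline use, gained, and CAR1 and UGA1 kept in 4 of 4. The proline permease gene PUT4 was occupied in SPS in 4 strains and at 0 h in 1. Of 14 phosphate genes, 2 were occupied in SPS in every strain and 0, 3, 1 and 2 at 0 h. PHM8 and SPL2 were lost in 4 of 4, both through peaks also within reach of a neighbour (ARB1 and ARO9), and PHO84, the phosphate transporter gene, was gained in 3 strains and VTC1 in 2. The PHM8 peak was 151 bp wide in 3 strains and 201 bp in CXXC-deleted Spp1-myc, 275 to 300 bp upstream. With coding peaks only, the mean differences of both lists had the opposite sign (1.25 genes more at 0 h).

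Markers of other cell states had few peaks. None of 16 haploid mating genes was occupied in any of the 8 lists, as was true of most coding genes. With a window of 1000 bp, 0, 1, 0 and 0 of them were occupied in SPS and 1, 3, 2 and 3 at 0 h. Of 16 genes of the G1/S transition of cycling cells, 1, 3, 1 and 1 were occupied in SPS and 1 in each strain at 0 h, PCL1 in SPS and the cyclin gene CLN3 at 0 h in every strain. Of the genes of Set1C itself, only SWD3 was called, gained in 4 of 4 strains, through peaks 453 to 479 bp upstream of it that lie in the coding region of UMP1. SPP1 and BRE2, the tagged genes, had no peak in any of the 8 lists. Among the marker genes, LEU2 was occupied in SPS in 4 strains and at 0 h in 2, TRP1 in 4 and 3, and HIS4 and URA3 in none.

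Genes kept in 4 of 4 strains differed in where the peak lay. Of the 242, 69, 22, 68 and 64 had only an upstream peak in SPS, against 6, 5, 7 and 5 at 0 h. In 17 of them the SPS peaks lay only upstream and a 0 h peak lay in the coding region in all 4 strains. These included the carbonic anhydrase gene NCE103, the heme oxygenase gene HMX1, the homocitrate synthase gene LYS20, the iron permease gene FTR1, and TIS11, ARO9, GAL3 and XBP1. They were named after their values were seen.

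The part of the coding region covered by peaks also differed in the 149 kept genes of at least 1000 bp, a comparison that was not planned. Genes with cover in both media numbered 109, 138, 110 and 113 in Bre2-myc, Spp1-myc, PHD-deleted and CXXC-deleted Spp1-myc. In these, the median centre of the covered part lay at 50.0%, 44.1%, 49.7% and 49.2% of the coding length in SPS and at 29.8%, 26.6%, 28.7% and 26.4% at 0 h. It was nearer the start at 0 h in 89 of 109, 121 of 138, 90 of 110 and 99 of 113 genes. Over the 102 genes with cover in all 8 lists, 78 had it nearer the start at 0 h in 4 of 4 strains and 4 nearer the end. The median covered share was 49.2%, 62.5%, 49.7% and 51.0% in SPS and 37.1%, 42.7%, 41.3% and 41.1% at 0 h. Both differences had the same direction in 4 of 4 strains (exact p = 0.125).

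**Figure D4:**
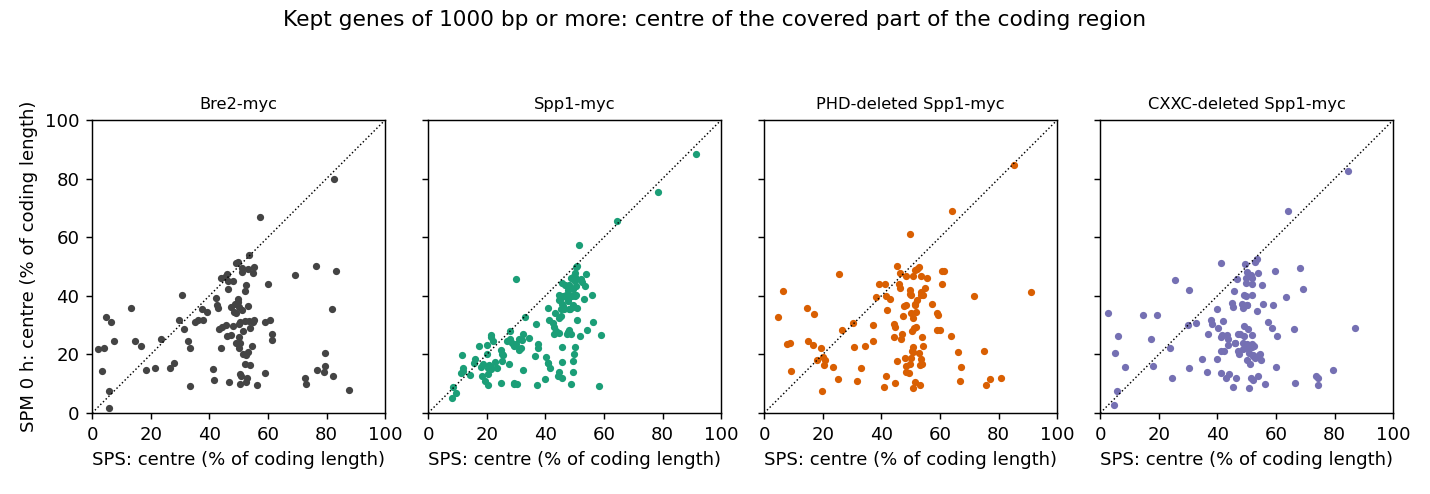
Centre of the peak-covered part of the coding region in SPS (x axis, % of coding length, 0 at the start) and at SPM 0 h (y axis), 1 point per gene kept in all 4 strains and at least 1000 bp long, in 1 panel per strain. Most points lie below the dotted line of equal position, 78 of 102 genes in all 4 strains.

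Of the 7 named kept genes of at least 1000 bp, 6 had the centre nearer the start at 0 h in 4 of 4 strains, and LSC2 in 3 of 4. For ENO1 the centre lay at 52.1%, 51.7%, 52.2% and 52.2% in SPS and at 31.2%, 26.1%, 38.5% and 19.7% at 0 h. ENO1 encodes enolase, and 81.1%, 84.9%, 81.1% and 81.1% of its coding region was covered in SPS and 26.8%, 41.9%, 45.9% and 22.9% at 0 h. Its best SPS peak in Bre2-myc spanned chromosome VII 1000087 to 1001337, with its midpoint 215 bp upstream, and its 0 h peak spanned 1001076 to 1001326, with its midpoint 274 bp inside. For GLK1, glucokinase, the cover was 98.0%, 94.7%, 94.7% and 97.5% in SPS and 66.6%, 54.1%, 66.2% and 67.5% at 0 h. ATP2, the beta subunit of ATP synthase, had 97.4%, 90.8%, 97.2% and 91.2% in SPS and 74.6%, 71.4%, 74.5% and 74.5% at 0 h. All 3 genes were thus covered less at 0 h in every strain.

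ACH1, a CoA transferase of acetate metabolism, was covered nearly throughout in both media, with 90.1%, 98.6%, 93.2% and 96.4% in SPS and 95.4%, 76.7%, 89.2% and 86.1% at 0 h. LSC2, the other succinyl-CoA ligase subunit, had a cover of 85.7%, 89.6%, 89.6% and 85.7% in SPS and 93.0%, 66.3%, 70.2% and 92.2% at 0 h, without 1 direction over the strains. SDH1 of succinate dehydrogenase, the flocculin gene FLO11 and the mitochondrial porin gene POR1 complete the 8 named. In all 8 lists 10 kept genes shared the highest score, so these 8 were taken from them by alphabet.

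Among groups, the kept genes of storage carbohydrates and antioxidants had the centre nearest the start at 0 h in every strain, of the 8 lists with at least 3 such genes. The median of their 9 genes of 1000 bp or more was 46.8%, 45.7%, 44.2% and 47.1% of the coding length in SPS and 13.2%, 13.9%, 15.3% and 13.7% at 0 h. Their covered share was 54.3%, 85.3%, 61.0% and 62.6% in SPS and 21.3%, 21.3%, 22.2% and 26.6% at 0 h. The 11 kept glycolytic genes of that length (10 with cover in both media in Bre2-myc) had medians of 50.1%, 50.0%, 50.3% and 50.2% in SPS and 31.2%, 35.4%, 36.7% and 29.2% at 0 h. These groups were not tested against each other. Centre and cover are shares of the coding length, so a peak of equal bp position and width gives lower values in a longer gene. Gene lengths were not compared between the groups.

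The classes were followed to later times in SPM in the same strains, in lists that did not enter the classes. The 77 gained ribosomal protein genes had almost no peak at 2 h and 4 h. At 2 h 1, 1, 0 and 0 were occupied in Bre2-myc, Spp1-myc, PHD-deleted and CXXC-deleted Spp1-myc, at 4 h 1, 1, 1 and 0, and at 6 h 4, 8, 7 and 8. Of the other 180 gained genes, 33.9%, 21.7%, 25.0% and 34.4% were occupied at 2 h, and 17.8 to 19.4% at 6 h. Over all coding genes the share was 12.9 to 19.6% at 2 h and 11.3 to 16.6% at 6 h.

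Of the 99 lost genes, 16.2 to 24.2% were occupied at 2 h, 21.2 to 37.4% at 4 h and 9.09 to 20.2% at 6 h. Of the kept genes, 78.9 to 88.0% were occupied at 2 h and 61.2 to 64.9% at 6 h. In at least 1 of the 12 later lists, 55 lost, 119 gained and 227 kept genes had a peak, and in all 12 only 1 lost and 10 gained genes did, against 115 kept. The later share of gained genes, averaged over the 12 lists, was 16.6%. With Spp1-myc left out, it was 32.9% for the genes gained in the other 3 strains, averaged over the later lists of those 3 strains. For classes made with equal list sizes it was 31.1%, with the 12 later lists at full length. These shares were not tested.

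The 0 h classes were also set beside 6 lists of HA-tagged Spp1 at 0 h, from strains whose histone H3 is wild type, H3K4R (lysine 4 to arginine) or H3R2A (arginine 2 to alanine), with 2 replicates each. Kept genes were occupied in all of them, at 86.0 to 99.2%, and lost genes at 8.08 to 16.2%, below the 19.9 to 32.8% of all coding genes. Gained genes differed between replicates. With wild-type H3, 97.7% (251 of 257) were occupied in replicate 1 and 26.5% (68) in replicate 2. With H3K4R the shares were 60.3% and 82.5%, and with H3R2A 90.7% and 45.9%. For the 77 ribosomal protein genes among them, 76 were occupied in replicate 1 and 1 in replicate 2 with wild-type H3, 47 and 72 with H3K4R, and 75 and 8 with H3R2A.

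**Figure D5:**
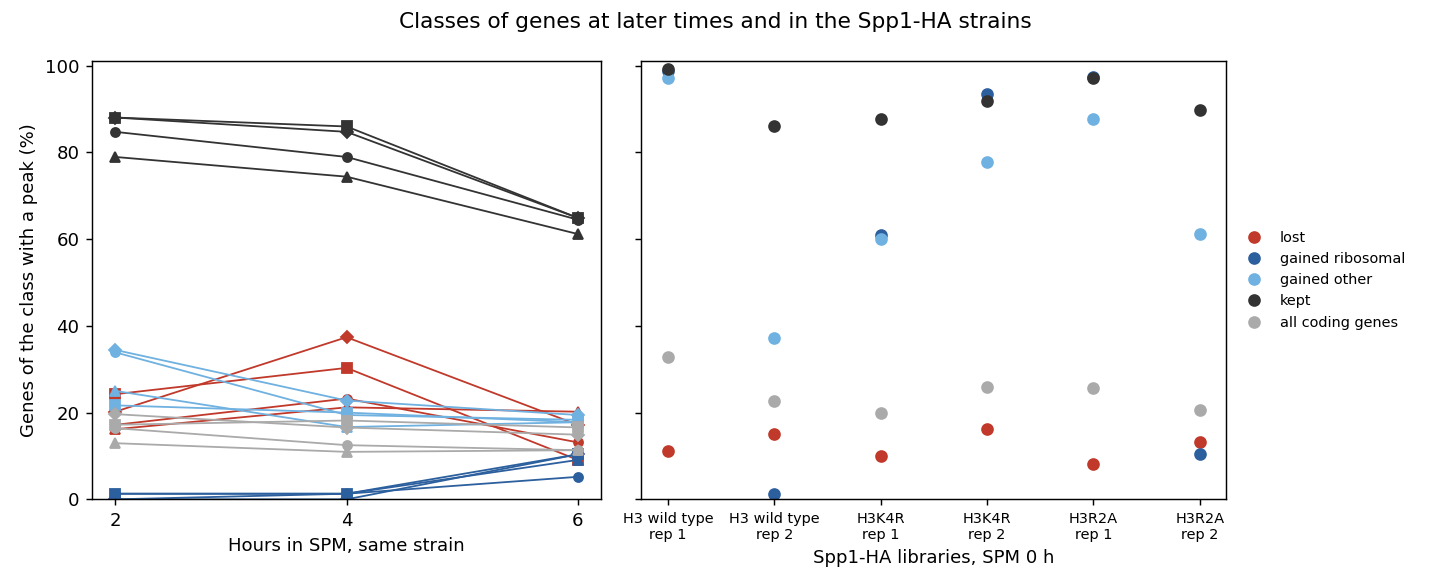
Share of each class of genes with a peak (y axis, %) at 2, 4 and 6 h in SPM in the same strain (left, 1 line per strain, symbols as in the plot of gene lists) and in each Spp1-HA list at 0 h (right). Gained ribosomal protein genes lie below 11% at all later times, and their share in the Spp1-HA lists ranges from 1.30 to 98.7%.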

How the data were processed

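Per the labels' protocols, meiotic cultures were fixed, sonicated and precipitated with anti-myc antibody, and per the submitters' processing notes BWA and deepTools were used on sacCer3 (peak caller, threshold and control: not given in the sources used here). As deposited, the authors gave 1 list per sample with position, width and a score, a fraction between 0.5 and 1, used here only to rank peaks within a list. Depth is unknown. Gene positions came from the RefSeq table (R64). Strand was read from locus tags. A peak was assigned by its midpoint, to the coding region or the 500 bp upstream. RNA genes had a reach of 250 bp. The 78 rows of the series whose width disagreed with their coordinates were given the width from the coordinates.

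The media were compared within strains by two-sided exact permutation, with Benjamini-Hochberg adjustment over 13 measures or 25 lists. Alternatives were an unmatched permutation, leaving out each strain, equal list sizes, the better-scoring peaks, other windows and overlaps, and Fisher's exact test. Members, lists and measures were chosen with earlier results of these data known. Named genes were the first 12 lost and gained and 8 kept by mean score percentile, up to 4 per list, and all Set1C and marker genes. Of these, 1 gene is not reported here. The counting of calls was checked on simulated lists with known lost and gained genes. There each peak lay at a gene's centre and unchanged genes were occupied alike in both media. The check therefore says nothing on missed or shared peaks in the real lists. The planned promoter motif search was not run, since no sequence was used here. Python 3.11.15, numpy 2.4.6, pandas 2.3.3, scipy 1.17.1 and matplotlib 3.10.9 were used. The antibody's catalogue number differs between the protocol and the sample fields.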

Additional observations from a re-analysis of the deposited data

Results flagged for a closer look

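Spp1-myc in SPS lay far from the other 3 SPS lists, with a gap above the 95% critical value of Dixon's test for 4 values, in peaks (1782), occupied genes (1480), promoter share (18.6%), share of coding peaks in the first of 5 parts of the gene (36.0%), share outside coding regions (21.7%), covered length (637.8 kb) and divergent (9.37%) and tandem (11.15%) share. It did so too in occupied members of the mitochondrial ribosomal (28), ribosome biogenesis (1), translation factor (11), ergosterol (7) and G1/S (3) lists. At 0 h, Spp1-myc stood apart in median width (251 bp) and in acetate (24), tricarboxylic acid cycle (15), purine (11) and ergosterol (14) genes. CXXC-deleted Spp1-myc did so at 0 h in promoter share (9.07%) and regulators of ribosome genes (2). Bre2-myc did so at 0 h in nitrogen (4) and histone genes (6), and in SPS in cell wall genes (9). Chance alone gives about 1 such value in 20 groups, and in lists of few members a gap of 1 gene is enough.

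The difference between the media, 0 h minus SPS, had the opposite sign in 1 strain to that in 2 or 3 others for 6 lists, which was not tested. It was -2 genes in Spp1-myc for mitochondrial ribosomal proteins, 2 in CXXC-deleted Spp1-myc for early meiotic genes and -3 in PHD-deleted Spp1-myc for chaperones. It was -1 in Bre2-myc for storage carbohydrates, 1 in Spp1-myc for phosphate and -1 in PHD-deleted Spp1-myc for hexose transport.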

How the results depend on the processing

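The main test matches the media by strain. Beyond that, by replicate number, no paired analysis was possible because each strain has 1 list per medium. Without that matching, the permutation over 70 arrangements gave its smallest p, 0.0286, for the promoter share (-26.0 points), the first (28.5) and last (-13.3) of 5 gene parts and the ribosomal protein genes (106). The shares outside coding regions and in divergent and tandem intervals, and the tRNA and snoRNA genes, reached the same p. So did the lists of ribosome biogenesis, translation factors, acetate use, tricarboxylic acid cycle, amino acids, purines, ergosterol and Set1C. Genes lost in 4 of 4 strains numbered 61 with equal list sizes, 42 in the better-scoring 50% of each list, 49 with a 250 bp window, 60 with any overlap, 45 with peaks in reach of 1 gene, 29 with coding peaks only and 0 by Fisher's exact test (356 genes at its smallest unadjusted p, 0.0286). Leaving out a strain gave 102 to 159, highest without Spp1-myc. Gained genes numbered 118 with equal sizes, 144 in the better-scoring part and 0 by Fisher's exact test, and 281 to 603 without 1 strain. Kept genes numbered 154, 97, 367 with a 1000 bp window and 155 with coding peaks only. With equal sizes 45 of the 61 lost, 74 of the 118 gained and 154 of the 154 kept genes were shared with the main classes. Other settings changed the members of the lost class more than its size. Of the 99 lost genes, 29 were among the 60 with any overlap and 22 among the 29 with coding peaks only. With a 1000 bp window 131 genes were lost, 67 of them shared, and 302 gained, 211 of them shared.

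The mean later share of lost genes was 30.5% with equal sizes and 32.1% in the better-scoring part, and that of gained genes 31.1% and 32.6%, and 14.2 to 32.9% without 1 strain. Later and Spp1-HA lists were not shortened in these settings, and a strain left out was left out of the later lists too. In Spp1-HA lists the mean share of lost genes was 19.7%, 18.7%, 8.84% (250 bp), 6.67% (any overlap) and 6.32% (coding only). Mean list differences of opposite sign, in genes, were as follows. With equal sizes they were -0.5 for chaperones and for storage, and -0.25 for ergosterol and for histones. In the better-scoring part it was 0.25 for glycolysis. With 250 bp they were 1.25 for early meiotic, 1 for nitrogen, 1.25 for phosphate and 0.75 for G1/S genes. With any overlap they were 1.25, 1.25, 1.25 and 0.75, and with coding peaks only 1.25, 1.25, 1.25 and 0.5. With 1000 bp they were 0.25 for phosphate and -2.25 for hexose genes, and with peaks in reach of 1 gene 0.5 for early meiotic and 1.25 for phosphate genes. The causes were not tested. Depth is unknown, so an absent peak may be an undetected one.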
